A study of Sus scrofa with 13 samples.

Results

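Of the 21607 Ensembl genes listed in the pig total RNA libraries, 34 peaked in skeletal muscle at day 30 after birth. They were chosen by their RPKM, the reads on a feature scaled by the length of the feature and the total reads of the library. A gene was taken when its RPKM in muscle at day 30 was at least 3 and was at least 4 times the values of both day 0 and day 240. The muscle was longissimus dorsi, the long muscle of the back, and came from Guizhou mini-pigs, untreated as far as the labels tell. The same breed gave libraries of ovary, testis, adipose tissue, heart, lung, spleen, liver and kidney (spelled kindey in the labels) at 240 days, which with the muscle of that age makes 9 organs. A tissue mixture (multiple tissues) and a muscle mixture (longissimus dorsi) held equal quantities of RNA from multiple breeds and multiple time points, and the ages in the mixtures are not given in the sources used here. There was 1 library per organ, stage or mixture, so no value had a replicate check and differences between animals, libraries and stages cannot be told apart.

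Skeletal muscle fibres are formed before birth in the pig and grow afterwards, while their contractile proteins change from developmental to adult forms. Actin cross-linking proteins hold the sarcomeres to each other and to the membrane, and the basement membrane around each fibre carries laminins, type IV collagens, nidogens and the large proteoglycan perlecan. Muscle also takes up glucose and breaks it down by glycolysis.

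Among the 34 genes, 10 had a gene symbol, and the group was led by FLNC, filamin C, the muscle form of the filamins that cross-link actin. The others with a symbol were FNDC9, a protein with a fibronectin type III domain; TMUB2, a membrane protein with a ubiquitin-like domain; HSPG2, the basement membrane proteoglycan perlecan; THOC3, a subunit of the THO complex for messenger RNA export; DLGAP4, a scaffold protein of synapses; PALLD, the actin-binding protein palladin; PFKFB3, which makes an activator of glycolysis; EHMT2, a histone methyltransferase; and RPGRIP1, a protein of the photoreceptor cilium. The remaining 24 had only an identifier. Of the 2244 Ensembl genes with RPKM of at least 3 in muscle at day 30, 65.0% had a symbol.

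The rule called 1.52% of these 2244 genes. Since it used the 3 muscle stages, the values at these stages are given as a description. At day 30 the RPKM of the 34 genes ran from 3.20 to 72.0 with a median of 5.07, against medians of 0.515 at day 0 and 0.306 at day 240. Only 6 of them reached 10 RPKM at day 30. Together they made up 0.379% of the summed RPKM of the library, and 73.1% of their 24521 reads fell on FLNC. The reads on a single gene at day 30 ranged from 26 to 17920 with a median of 118.

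**Figure D1:**
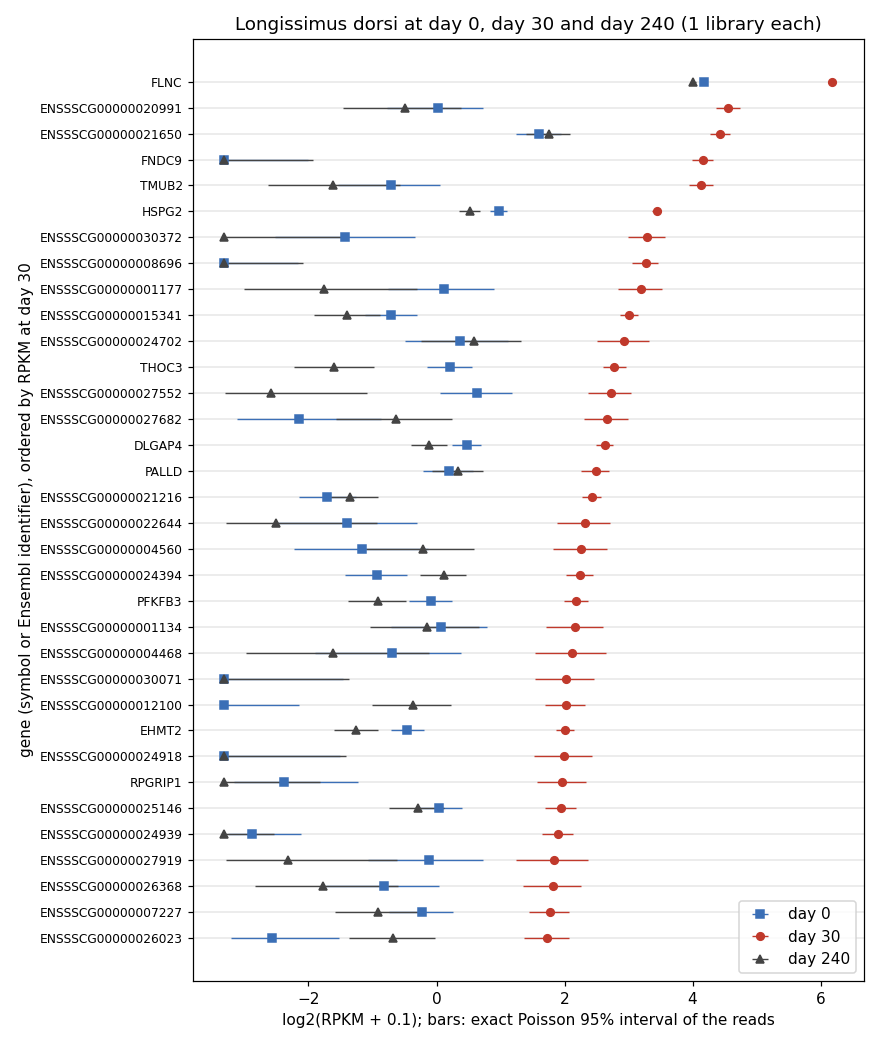
RPKM of the 34 genes in longissimus dorsi at day 0 (squares), day 30 (circles) and day 240 (triangles), on the log2(RPKM + 0.1) scale, with 1 library per stage. Bars are exact Poisson 95% intervals of the reads and cover counting error only. The day-30 values, from 3.20 to 72.0 RPKM, lie to the right of both other stages by the choice of the genes.

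Intervals of RPKM in brackets are exact Poisson 95% intervals of the whole reads recovered from the values. Intervals of a ratio are exact binomial ones from the reads of both libraries. Both cover counting error only. Levels of single genes are RPKM as deposited, and their order between libraries can differ under another scaling. The ratio of day 30 to the higher of the other stages had a median of 6.45 over the 34 genes, with stages under 3 reads set at 3 reads. The interval of the ratio without this floor of 3 reads had a lower bound of at least 4 for 18 genes. The lowest lower bound was 1.92. The genes were taken because the ratio reached 4 on these same reads, so the count of 18 is a description. Day 0 was the higher of the other stages for 21 genes and day 240 for 9, and 4 had no read at either.

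FLNC was at 17.9 RPKM at day 0, 72.0 at day 30 and 16.0 at day 240, on a feature of 10179 nt. Its ratio of 4.02 (3.90 to 4.13) was the lowest of the 34, just inside the limit. In the organs it was at 25.0 RPKM in heart, 2.18 in spleen, 1.29 in ovary, 1.27 in lung, and 0.700 or less in testis, adipose tissue, kidney and liver. The striated muscles were thus the highest organs for FLNC at 240 days, with heart 1.56 times muscle. The muscle mixture, which the rule did not use, held 114 RPKM and the tissue mixture 65.4.

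Among 7 genes of the Z-disc, the plate that anchors actin between sarcomeres, 2 were highest at day 30 (background 24.1%), and PALLD was the single one that met the rule. FLNC, which also lies at the Z-disc and met the rule, was not counted in this set. The set was put together after the values were seen, and PALLD was chosen for its peak at day 30. The share highest at day 30 thus depends on how the set was chosen, and nothing is read from it. PALLD was at 1.04 RPKM at day 0, 5.49 (4.69 to 6.40) at day 30 and 1.16 at day 240. In the organs it was highest in ovary at 15.2 RPKM, followed by spleen at 9.05 and lung at 8.93. With RPKM as deposited, PALLD in muscle at day 30 was thus below its level in these 3 organs. Scaling to the same median ratio multiplies ovary by 0.171, spleen by 0.531 and lung by 0.342, so this order depended on the scaling. The other Z-disc gene highest at day 30 was XIRP2, at 288, 345 and 165 RPKM. MYOT, the Z-disc protein myotilin, went the other way, at 139, 70.5 and 243 RPKM.

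HSPG2 was at 1.86 RPKM at day 0, 10.8 (10.3 to 11.3) at day 30 and 1.33 at day 240, from 428, 1691 and 279 reads. Its ratio was 5.78 (5.19 to 6.44). Its organ levels at 240 days were 15.2 RPKM in ovary, 11.3 in heart, 8.29 in lung, 7.36 in spleen, 6.94 in adipose tissue, 6.52 in kidney, 1.86 in liver and 0.428 in testis. With RPKM as deposited, HSPG2 in muscle at day 30 thus lay among the organs. Muscle at day 0 and day 240 lay with liver near the low end. The place of day 30 depended on the scaling, since the same median ratio multiplies ovary by 0.171 and heart by 0.595. The tissue mixture held 32.8 RPKM and the muscle mixture 14.5.

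The identifier ENSSSCG00000025146 had the organ and mixture profile most like HSPG2 among the 34, with Pearson r = 0.95 on the log2(RPKM + 0.1) scale over the 10 libraries that the rule did not use. It was at 0.925, 3.74 and 0.715 RPKM at the 3 stages. Its highest organs were ovary at 12.4 RPKM and heart at 7.52, and testis was lowest at 0.403, as for HSPG2. The 10 libraries include both mixtures and differ in depth, and the correlation is a description.

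Among 10 genes of the basement membrane, a set put together after the 34 genes were known, 6 were highest at day 30, HSPG2 included, which was chosen for its peak and alone met the rule. Of all Ensembl genes above 0 at any stage, 24.1% were highest at day 30. On the wider matrix list, 6 of 23 genes were highest at day 30, and the summed level was 261, 202 and 82.9 RPKM. COL4A2, a chain of type IV collagen, was at 6.26, 13.5 and 0.841 RPKM. NID1, nidogen, which links laminin to collagen, was at 2.84, 6.79 and 1.06 RPKM. AGRN, agrin, the proteoglycan of the nerve-muscle junction, had a ratio of 5.62 but stayed at 0.686 RPKM at day 30, under the limit on level. LAMC1, the common gamma chain of laminins, was not highest at day 30, with 19.4, 17.7 and 9.53 RPKM.

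FNDC9 was listed at 0 at day 0 and day 240 and at 17.8 RPKM (15.8 to 19.9) at day 30. It was also at 0 in all 8 other organs and in the muscle mixture, and at 0.158 RPKM in the tissue mixture. These are the only 2 of 13 libraries with a value above 0. Its recovered reads, 304 at day 30 and 12 in the tissue mixture, are lower bounds, since a length found from 2 libraries may be a fraction of the true one. Against 3 reads in the day-240 library, day 30 was at least 135-fold higher. None of the other 6 FNDC genes listed met the rule, and FNDC5, the precursor of irisin, was at 0.254 RPKM at day 30.

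TMUB2 was at 0.512 RPKM at day 0, 17.4 (15.2 to 19.8) at day 30 and 0.224 at day 240, from 10, 232 and 4 reads. Its ratio of 33.9 had an interval from 18.1 to 71.7. Its highest organ was ovary at 5.57 RPKM, and heart was at 0. The tissue mixture held 7.49 RPKM and the muscle mixture 1.95. Day 30 thus stood above all other libraries for TMUB2, with the tissue mixture next. TMUB1, its paralogue, was at 0.0979 RPKM at day 30.

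THOC3 was at 1.06 RPKM at day 0, 6.75 (5.93 to 7.66) at day 30 and 0.228 at day 240. No organ exceeded 2.21 RPKM, the value of testis. The other genes of the THO complex and its partner did not share this pattern. All 6 of them, THOC1, THOC2, THOC5, THOC6, THOC7 and DDX39B, were highest at day 0, among them THOC2 at 9.73, 3.42 and 3.75 RPKM.

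PFKFB3 was at 0.841 RPKM at day 0, 4.43 (3.86 to 5.06) at day 30 and 0.430 at day 240. In adipose tissue it was at 4.18 RPKM, in liver at 4.01 and in lung at 3.92, as deposited inside the interval of muscle at day 30. PFKFB2 and PFKFB4, paralogues of the same enzyme, were lower at day 30 than at day 0, with PFKFB4 at 2.56, 1.69 and 1.18 RPKM. PFKFB1 had no read at any stage.

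EHMT2 was at 0.629 RPKM at day 0, 3.93 (3.55 to 4.33) at day 30 and 0.319 at day 240, from 93, 397 and 43 reads. With RPKM as deposited, ovary, at 3.98, was inside the interval of day 30, and the other 7 organs lay between 0.549 and 2.85. DLGAP4 was at 1.29, 6.08 and 0.827 RPKM at the 3 stages. Its highest organ was testis at 6.93 RPKM. DLGAP4 was the single member of its family at 1 RPKM or more at day 30, and DLGAP5, a protein of the mitotic spindle, was at 0.692 RPKM there from 52 reads, against 6 reads at day 0.

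RPGRIP1 was at 0.0913 RPKM at day 0, 3.80 (2.88 to 4.93) at day 30 and 0 at day 240. The day-0 value rests on 2 reads, and the ratio to that value as deposited, 41.7, had an interval from 11.02 to 352; with day 0 and day 240 set at 3 reads, as in the median and the plot of ratios, it was 25.4. Testis held 66.0 RPKM, 57.5 times the next organ, lung. The tissue mixture held 1 read of RPGRIP1 (0.0151 RPKM) and the muscle mixture 3 reads (0.0777 RPKM). RPGRIP1 was thus high in testis and close to 0 in both mixtures, although the labels name multiple tissues for the former.

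Beyond the genes with a symbol, 6 short features were taken as a set by their level in the tissue mixture, which the rule did not use. ENSSSCG00000020991, ENSSSCG00000001177, ENSSSCG00000022644, ENSSSCG00000001134, ENSSSCG00000030071 and ENSSSCG00000024918 were the 6 with more than 200 RPKM in the tissue mixture, a limit set after the values were seen. The highest value of the other 28 was 65.4 RPKM, that of FLNC. Their lengths ran from 312 to 411 nt, and all 6 were multiples of 3, as were 48.9% of all Ensembl lengths.

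These 6 lay between 230 and 960 RPKM in the tissue mixture, and their range in the muscle mixture was 25.8 to 68.7 RPKM. In muscle at day 30 they were at 3.88 to 23.4 RPKM, and at day 0 and day 240 at no more than 0.986. In the organs they were at 23.7 to 177 RPKM in testis, 5.16 to 104 in ovary, 5.59 to 40.4 in spleen and 5.003 to 35.0 in lung. Lower ranges were found in kidney (0.490 to 9.78), adipose tissue (2.43 to 9.03), liver (0.789 to 6.99) and heart (1.77 to 6.97). The tissue mixture, by which they were picked, was thus the highest library for all 6. Muscle at day 0 and day 240, low by the rule, were the lowest.

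The highest of the set at day 30 was ENSSSCG00000020991, at 0.911 RPKM at day 0, 23.4 (20.4 to 26.6) at day 30 and 0.614 at day 240. It was at 177 RPKM in testis, 104 in ovary, 40.4 in spleen, 35.0 in lung, 9.03 in adipose tissue, 6.99 in liver, 6.97 in heart and 1.03 in kidney. ENSSSCG00000001177 was the highest in the mixtures, with 960 RPKM in the tissue mixture, 26.8 times its highest organ, spleen. ENSSSCG00000030071 and ENSSSCG00000024918 had no read at day 0 or day 240, and 38 and 39 reads at day 30, at least 16.9-fold and 17.4-fold higher than 3 reads at day 240. The profiles of the 6 over the 10 libraries not used by the rule were alike, with a median Pearson r of 0.90 over the 15 pairs (lowest 0.71), against 0.34 over the 561 pairs of the 34 genes. The 6 were picked by 1 of these libraries, so the correlation is a description, and whether they share reads with near-identical copies was not tested.

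**Figure D2:**
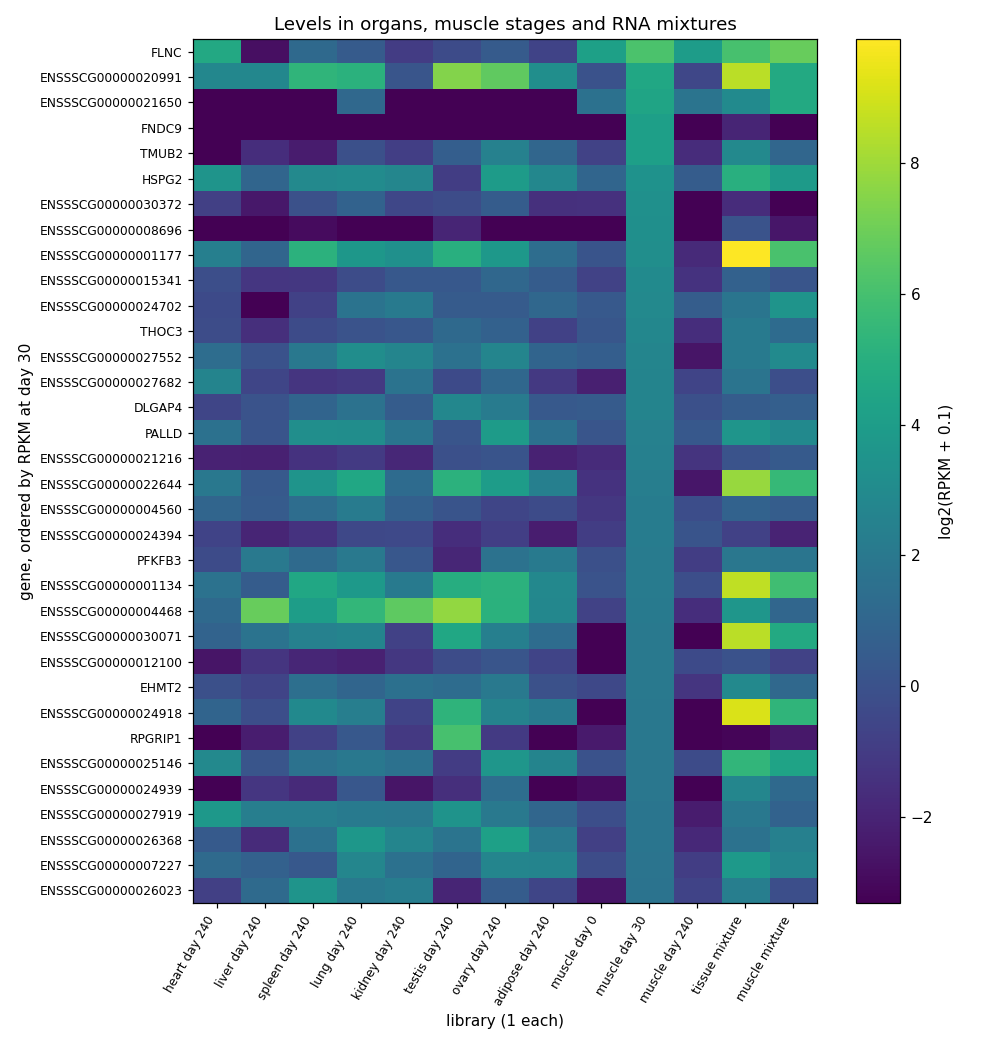
Levels of the 34 genes (rows, by RPKM at day 30) in the 8 organs other than muscle, the 3 muscle stages and the 2 mixtures (columns, 1 library each), as log2(RPKM + 0.1). The 6 short features are at 230 to 960 RPKM in the tissue mixture, by which they were picked. FNDC9 is above 0 only in day-30 muscle and the tissue mixture.

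Other identifiers had profiles of other kinds. ENSSSCG00000021650 was at 2.94, 21.4 and 3.27 RPKM at the 3 stages and at 26.5 RPKM in the muscle mixture. Among the other organs it was above 0 only in lung, at 2.15 RPKM. Its highest libraries were thus the muscle mixture and muscle at day 30. ENSSSCG00000008696 was at 9.52 RPKM (8.22 to 10.95) at day 30 from 194 reads, with no read at day 0 or day 240, and was at least 86.3-fold higher than 3 reads at day 240. It reached 0.155 RPKM in testis and 0.930 in the tissue mixture.

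ENSSSCG00000030372 was at 0.271, 9.71 and 0 RPKM at the stages and had no read in the muscle mixture. ENSSSCG00000024939 was at 3.63 RPKM at day 30 from 138 reads, with 2 reads at day 0 and none at day 240. ENSSSCG00000004468 was the member with the highest organ level, at 214 RPKM in testis, 112 in liver and 97.2 in kidney, against 4.24 in muscle at day 30 from 28 reads. Muscle at day 30 was thus low for ENSSSCG00000004468 and high for ENSSSCG00000030372, which reached no more than 1.70 RPKM in any organ.

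The remaining 12 identifiers had between 3.20 and 7.95 RPKM at day 30. ENSSSCG00000015341 led them, at 0.513, 7.95 and 0.281 RPKM from 36, 382 and 18 reads, with ovary, at 2.04 RPKM, as its highest organ. ENSSSCG00000021216 was at 0.206, 5.26 and 0.293 RPKM, and no organ reached 1 RPKM. ENSSSCG00000027682 and ENSSSCG00000027919 were highest in heart, at 6.27 and 13.3 RPKM. ENSSSCG00000026023 was highest in spleen at 11.4 RPKM, 2.39 times kidney. ENSSSCG00000026368 was highest in ovary at 17.9 RPKM, and ENSSSCG00000012100 in ovary at 1.01. ENSSSCG00000024702 was highest in kidney at 4.08 RPKM. ENSSSCG00000027552, ENSSSCG00000004560 and ENSSSCG00000007227 were highest in lung, at 8.86, 4.36 and 6.53 RPKM. ENSSSCG00000024394 was highest in muscle itself among the organs at day 240, at 0.980 RPKM.

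The 34 features were short. Their median length was 664 nt, against 1697 nt over the 2244 genes with at least 3 RPKM at day 30. Of the 34, 14 were under 500 nt, and none of these 14 had a symbol. Over the 2244 genes, 9.49% were under 500 nt. Lengths are the smallest that give whole reads in all libraries, and 33 of the 34 were above 0 in at least 4 libraries.

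In the organs at 240 days, the 34 genes were highest in ovary for 11 (background 41.7% of the 2244 genes), testis for 9 (24.4%), lung for 4 (4.01%), heart for 3 (8.29%), spleen for 2 (1.56%), muscle for 2 (13.2%), and kidney and adipose tissue for 1 each (3.61% and 1.92%). Liver was the highest for none (1.29%), and FNDC9 was at 0 in all 9. Which organ was highest depended on the scaling: with RPKM scaled to the same sum, ovary was highest for none and lung for 11. As deposited, ovary and testis led the count, with 32.4% and 26.5% of the 34, against 41.7% and 24.4% of the background.

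Another organ was at least 4 times muscle at day 240 for 27 of the 34 (background 43.7%), but a low value at day 240 was part of the rule. The median of tau over the 9 organs was 0.380 for the group and 0.252 for the 2244 genes. Tau runs from 0 for an even profile to 1 for a gene in 1 organ. Muscle at day 240, low by the rule, was 1 of the 9 organs, so the background is not a like group. FNDC9, at 0 in all 9, entered the median with a tau of 0. It was at least 0.9 for 1 member, ENSSSCG00000008696, whose highest organ level was 0.155 RPKM.

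The mixtures were not used by the rule. The tissue mixture was at least 2 times the muscle mixture for 20 of the 34 genes, against 9.63% of the 2244, and the muscle mixture at least 2 times the tissue mixture for 3, against 21.3%. The 3 were ENSSSCG00000021650, ENSSSCG00000024702 and RPGRIP1, the last on 1 and 3 reads. With a mixture under 3 reads set at 3 reads, the counts were 19 (9.58%) and 2 (21.2%), without ENSSSCG00000030372 (10 and 0 reads) and RPGRIP1. FNDC9, with at least 12 reads and none, stayed among the 19. Among features under 500 nt the tissue mixture was at least 2 times higher for 10 of 14 members, against 16.0% of such genes, and among the longer ones for 10 of 20, against 8.96%. Among genes under 3 RPKM at both day 0 and day 240 it was so for 20 of 32 members, against 37.9% of 145 genes. The 145 genes include these 32 members, a larger part than the 34 are of the 2244. The excess over the background was thus smaller when genes with low levels at the other muscle stages were taken for comparison, in part through this overlap.

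**Figure D3:**
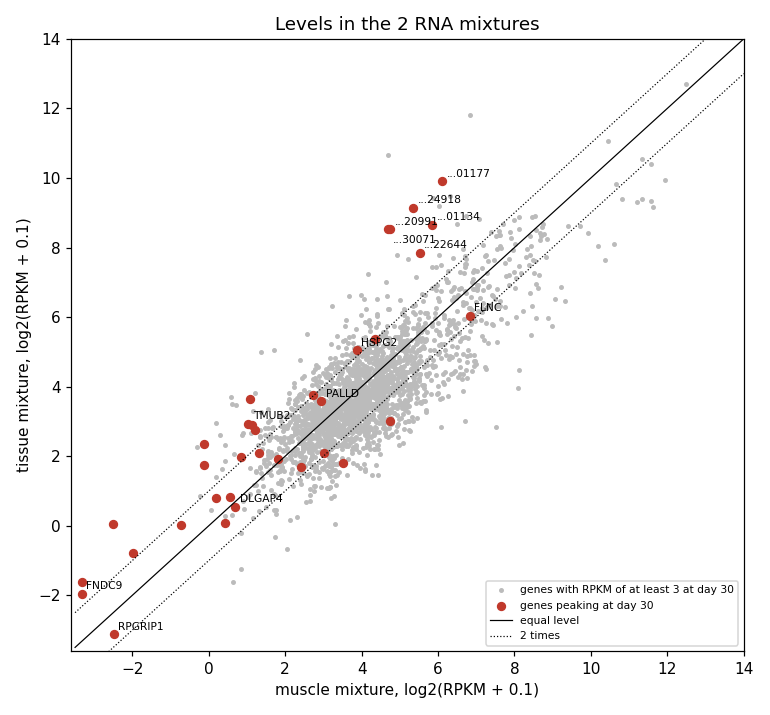
Level in the muscle mixture (x) and the tissue mixture (y), both as log2(RPKM + 0.1), for the 2244 Ensembl genes with at least 3 RPKM in muscle at day 30 (grey) and the 34 genes peaking there (red). The solid line marks equal levels and the dotted lines 2 times. Of the 34, 20 lie on or above the upper dotted line. The 6 short features, picked by their tissue mixture level, lie highest on the y axis among the 34. They are labelled by the last digits of their identifiers.

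The muscle mixture, of the same muscle from multiple time points, was at least 4 times both day 0 and day 240 for 19 of the 34, against 6.33% of the 2244. With stages under 3 reads set at 3 reads it was so for 18, against 6.28%; the gene lost was ENSSSCG00000008696, at 4 reads in the muscle mixture and none at either stage. Under the median ratio scaling it was so for 11, against 1.16%. FLNC was 6.33 times the higher of these stages there, and HSPG2 7.80 times. THOC3 was 2.25 times and DLGAP4 1.18 times. FNDC9 and ENSSSCG00000030372 had no read in the muscle mixture. With RPKM as deposited, the muscle mixture was thus well above day 0 and day 240 for FLNC and HSPG2, and held no read of FNDC9. Low values at day 0 and day 240 were chosen by the rule, so the background is not a like group.

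Muscle at day 30 was the highest of all 13 libraries for 11 of the 34 (background 2.01%). It was so for 17 (7.75%) with the same sum and 21 (13.8%) with the same median ratio. The rule itself placed day 30 above 2 of the other 12 libraries, so nothing is read from the excess. The 11 were FNDC9, TMUB2, THOC3, PFKFB3 and 7 identifiers, among them ENSSSCG00000030372, ENSSSCG00000008696 and ENSSSCG00000015341. The tissue mixture was the highest for 11 (background 9.76%), which included HSPG2, EHMT2 and the 6 short features. For the median gene of the group, 1 library lay above day 30.

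The summed RPKM of all listed features was 124071 at day 0, 81849 at day 30 and 130870 at day 240. Scaled to the same sum, day 0 was multiplied by 0.660 and day 240 by 0.625, which raised day 30 by 0.60 against day 0 and 0.68 against day 240 on the log2 scale. The peak of all 34 genes held with the same sum. Since both factors are under 1, every ratio had to grow and no gene could be lost. The lowest ratio was 6.09 (FLNC), and the median ratio went from 6.45 to 10.1. The rule then took 67 genes (2.99% of the 2244), 33 of them added by the scaling. With the libraries scaled to the same median ratio over features, day 30 rose by 0.88 against day 0 and 0.12 against day 240. Here too both other stages were lowered for every gene, so that all 34 were kept by construction, with a lowest ratio of 4.90 (FLNC) and a median of 11.6, and the rule took 59 genes (2.63%).

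Both scalings added PPARGC1A, the coactivator of mitochondrial genes, the small GTPase gene RAB30, MTX1 of the outer mitochondrial membrane, the stress-induced factor ATF3 and the zinc transporter SLC30A7. PPARGC1A was at 5.55, 17.1 and 3.76 RPKM as deposited, with a ratio of 3.08. The same sum alone added PVALB, the calcium-binding parvalbumin of fast fibres, at 0, 19.7 and 7.77 RPKM, as well as EPAS1 and RCHY1. The same median ratio alone added COL3A1 and NID1 of the matrix, PDGFD and NFKBIA. COL3A1, a fibrillar collagen, was at 24.6, 58.1 and 9.22 RPKM as deposited. Of the 33 genes added by the same sum and the 25 added by the same median ratio, 18 were added by both. The choice of scaling thus decided a part of the further genes taken.

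**Figure D4:**
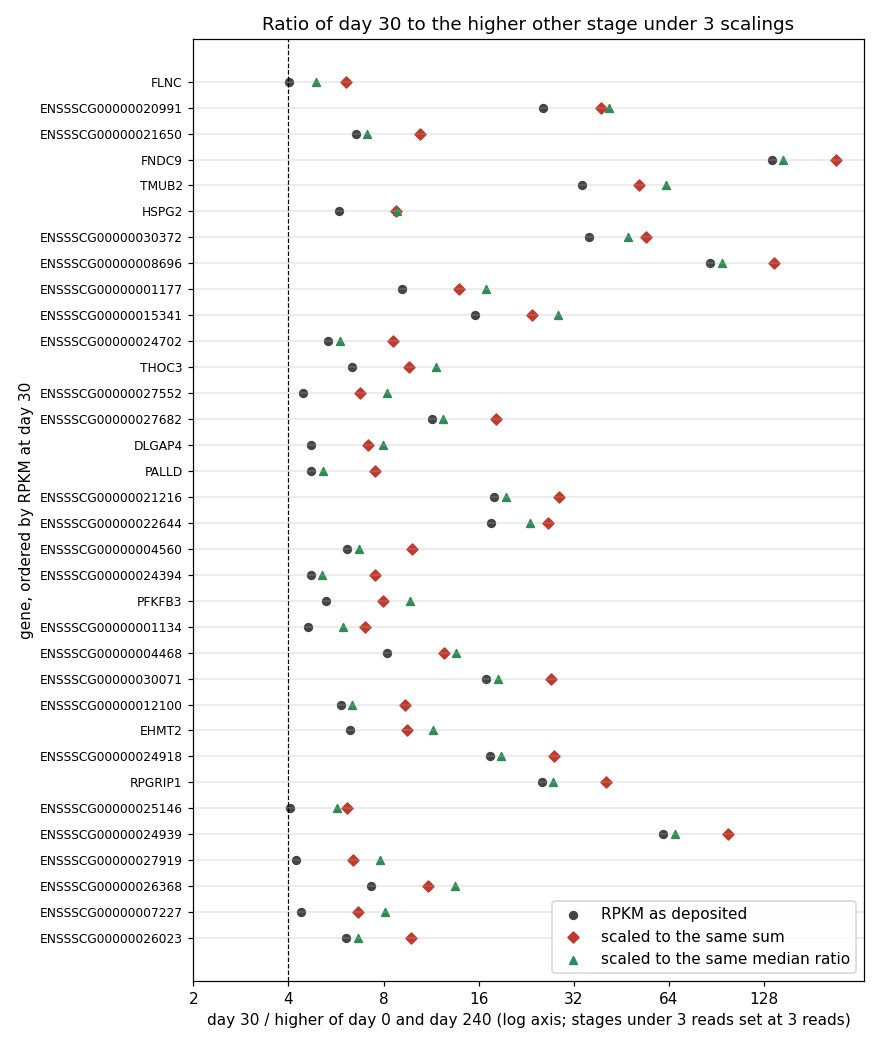
Ratio of day 30 to the higher of day 0 and day 240 for each of the 34 genes, with RPKM as deposited (circles), scaled to the same sum (diamonds) and scaled to the same median ratio (triangles), on a log axis; stages under 3 reads were set at 3 reads. All points lie at or right of the limit of 4 (dashed line), with FLNC lowest at 4.02, 6.09 and 4.90.

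Just outside the fold limit were ENSSSCG00000025831, ENSSSCG00000027864 and ENSSSCG00000013458, with ratios of 3.92, 3.77 and 3.74. Just inside it were FLNC, ENSSSCG00000025146 and ENSSSCG00000027919, with 4.02, 4.04 and 4.22. Just under the limit on RPKM were RHBDL3 at 2.99, OAS2 at 2.92 and ANO2 at 2.92 RPKM, and just above it ENSSSCG00000026023 at 3.20. RHBDL3 had no value above 0 at the other stages.

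None of 242 genes on 26 lists of pathways and cell types was among the 34, and 72 of the 242 reached 3 RPKM at day 30. With a background of 1.52%, a count of 0 among 72 is near the background. Summed over a list, 4 lists were highest at day 30 with RPKM as deposited. The cell cycle list summed to 2.92 RPKM at day 0, 11.4 at day 30 and 1.90 at day 240, and 15 of its 21 genes were highest at day 30, against 24.1% of all Ensembl genes above 0 at any stage. CENPF, a kinetochore protein, was at 0.0355, 1.36 and 0.0893 RPKM from 10, 263 and 23 reads, and TOP2A, the topoisomerase of dividing cells, at 0.157, 1.63 and 0.257 RPKM. These genes all stayed under 3 RPKM, so none could be among the 34. The other 3 lists were the interferon response (2.60, 9.22 and 4.01 RPKM), major histocompatibility genes (2.25, 6.72 and 3.73, most of it from SLA-DQB1) and immediate early genes (13.02, 17.6 and 12.4).

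Of the 13 lists of cell type markers, none had its highest sum at day 30 with RPKM as deposited. The sums of the lists were not scaled. The same sum multiplies day 0 by 0.660 and day 240 by 0.625, so the order of the stages can differ under it. Macrophage markers were at 3.53, 1.91 and 1.21 RPKM at the 3 stages, endothelial markers at 14.9, 10.8 and 8.45, and erythroid markers at 20.6, 8.58 and 9.98. Muscle markers were present at all stages. As deposited, the fast fibre list summed to 6985, 6585 and 13886 RPKM and the slow fibre list to 1371, 914 and 1808. The myogenic list summed to 378, 237 and 571, so that day 30 had the lowest sum for all 3. Single genes differed. Of the 13 fast fibre genes, 5 were listed, and 4 of these were highest at day 30 (background 24.1%). Among them was ACTA1, the actin of skeletal muscle fibres, at 2012, 3183 and 2998 RPKM. ATP2A1 and MYBPC2 were only just above day 240, at 352.3 against 350.8 and 152.9 against 152.5 RPKM. TNNC2, the fast troponin C, went the other way, at 4717, 2877 and 10378, and the low sum of the fast fibre list at day 30 came from it. In bulk tissue, fewer cells of a type and less RNA per cell cannot be told apart.

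The muscle library of day 30 had the fewest reads counted on features among the 11 single-tissue libraries, 3620348, or 14.8% of its total, against 7288042 at day 0 and 7154465 at day 240. Over the 2244 genes, the median difference of log2(RPKM + 0.1) was -0.65 for day 30 minus day 0 and -0.35 for day 30 minus day 240. Most genes were thus lower at day 30 with RPKM as deposited. The same sum raised day 30 by 0.60 against day 0 and 0.68 against day 240 on the log2 scale. The shift against day 0 was slightly smaller than the difference from day 0, and the shift against day 240 was larger than that from day 240. The same median ratio raised day 30 by 0.88 against day 0 and 0.12 against day 240. Neither scaling had shifts larger than both differences, and the direction for each stage depended on the scaling. Over the 34 genes the medians with RPKM as deposited were 3.12 and 3.66. Strand-specific libraries were made with SMART or dUTP by the labels, and which was used for which library is not given in the sources used here. The part of the protocol and of the share of reads counted in the peak was not tested.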

How the data were processed

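Total RNA depleted of ribosomal RNA was sequenced. The authors mapped the reads with TopHat (1.3.2, in the submitters' processing notes), assembled transcripts with Cufflinks, counted reads per feature and deposited RPKM. The genome build of these libraries and the reads behind the total of RPKM are not given in the sources used here. RPKM are not counts, and with 1 library per group no test was made. Total reads (21685316 to 108337358 per library) and reads per feature were recovered from ratios of RPKM, with whole numbers for 29462 of 29462 features above 0 (tolerance 0.001), and the recovery was tested on simulated data. A fold limit of 4, 3 RPKM, a floor of 3 reads and a pseudocount of 0.1 were used. Scaling to the same sum used all 32420 features, and the same median ratio used the 10968 features above 0 in all 13 libraries. Symbols came from a table of gene identifiers, which named 11654 of 21607 Ensembl genes. The genes named were those with a symbol, those next to the limits, the 2 most organ-biased per organ and those on 26 lists; identifiers were also named where a result turned on them. The 34 genes and all lists were chosen with earlier results of these data known, and the families around them, the alternatives for tau and 13 libraries, and the comparisons of the mixtures by length, level and read floor were added after the values were seen. Sequences were not used here. A further item is not reported here. Python 3.11.15, pandas 2.3.3 and scipy 1.17.1 were used.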

Additional observations from a re-analysis of the deposited data

How the results depend on the processing

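The number of genes peaking at day 30 was 34 as reported. It was 67 with the same sum, 77 with the same sum without the 10 highest features per library and 59 with the same median ratio. It was 118 with a limit of 1 RPKM, 6 with 10 RPKM, 99 with a limit of 2 times, 15 with 8 times, 16 with a pseudocount of 1, 30 with a pseudocount of 0.1 and 34 with at least 20 reads. The median tau, 0.380 as reported, was 0.273 with a pseudocount of 0.01, 0.540 with 1, 0.376 with the same sum and 0.391 with the same median ratio. The count of genes highest in an organ under the same sum was 1 in liver, 6 in spleen, 11 in lung, 5 in testis, 0 in ovary, 6 in adipose tissue and 0 in muscle. Under the same median ratio it was 5 in heart (10.3%), 2 in liver (8.82%) and 5 in spleen (6.51%). It was 4 in lung (1.78%), 8 in testis (12.8%), 1 in ovary (6.6%), 3 in adipose tissue (5.84%) and 4 in muscle (43.6%). Day 30 was the highest of the 13 libraries for 17 (7.75% of the 2244 genes) and 21 (13.8%) under the 2 scalings. Under the same median ratio, the muscle mixture was at least 2 times the tissue mixture for 6 genes (39.2%). It was at least 4 times day 0 and day 240 for 11 (1.16%). The tissue mixture was at least 2 times the muscle mixture for 18 (7.89%) with the same sum and 16 (4.14%) with the same median ratio. The cause of these shifts was not tested. No paired analysis was possible because each group had 1 library. Counting error limits the ratios of features with few reads, and differences between animals could not be estimated.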
